A study of Rattus norvegicus with 8 samples.

Results

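The lower lumbar spinal cord of rats with an injury higher up was examined for 6 genes. Of these, 5 encode S100 proteins: S100a4 (ENSRNOG00000011821), S100a6 (ENSRNOG00000011647), S100a10 (ENSRNOG00000023226), S100a11 (ENSRNOG00000010105) and S100b (ENSRNOG00000001295). The sixth is Anxa2 (ENSRNOG00000010362), which encodes annexin A2, the partner protein of S100a10. They were taken as 6 rows, by Ensembl identifier, of a table of 32883 genes, and were chosen by family with the injured-against-uninjured results of these same libraries known. Differences between the groups are therefore given as a description with their error, and no p-value is attached to them. The injured group held 4 libraries from Sprague Dawley rats, an outbred laboratory strain, taken 4 days after a hemisection, a cut through one side of the cord, at thoracic level 9. The uninjured group held 4 libraries from rats of the same strain without spinal cord injury. The lumbar tissue itself was not cut in either group. The labels give no age or sex, and do not say whether the uninjured animals had a sham operation, which side was sampled or whether each library came from a separate animal. The spread reported here is between libraries and may be partly technical.

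S100 proteins are small calcium-binding proteins of the EF-hand type, and most act by binding to a target protein once calcium has changed their shape. S100b is classically a product of astrocytes in the central nervous system and is also made by other glia. S100a4 binds non-muscle myosin and is linked to cell motility, and in the rat spinal cord it has been described in white matter astrocytes as well as in fibroblasts and leukocytes outside the nervous tissue. S100a10 differs from the others in that it no longer binds calcium. It binds annexin A2, a protein that attaches to membrane phospholipids in the presence of calcium, and the complex carries channels to the cell surface and binds plasminogen there. S100a6, also called calcyclin, and S100a11, a partner of annexin A1, are found in many dividing or migrating cells.

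Transcripts were counted by CEL-Seq2 at their polyadenylated 3' ends. A random identifier added before amplification lets copies of the same captured molecule be counted once. Each transcript gives 1 tag whatever its length, so counts do not scale with transcript length. Levels are given as CPM, the count relative to a library's total over the tested genes after scaling by edgeR's TMM factors. Different genes are set side by side on that footing only. How fully each gene's 3' end was annotated or captured was not examined. Injured libraries held 153060 to 378725 molecules and uninjured libraries 119808 to 405537, and replicate 3 was the shallowest of both groups. The top 10 genes by count held 18.5% of all molecules in injured replicate 3 and 24.6% in uninjured replicate 3, against 8.88% to 13.3% in the other 6 libraries. The highest count was 3989 to 4080 in all 8 libraries, whatever their depth, close to the number of different identifiers that 6 bases allow. The length of the identifiers is not stated. The part of such a ceiling in the larger share of the shallow libraries was not tested. Of 4159 genes tested across the 2 groups, 41 (0.986%) were called higher after injury and 0 lower by edgeR's quasi-likelihood test at an adjusted p under 0.05. At an unadjusted p under 0.05 that test gave 222 higher and 104 lower genes, and DESeq2 called 49 higher and 2 lower at its adjusted threshold. Other identifiers in the table are not paired with gene symbols in the sources used here, so markers of the tissue's cell types and of blood or meninges, and the other genes of these pathways, were not examined. In whole tissue, more or fewer cells of a type cannot be told apart from more or less RNA per cell.

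S100a4 and S100a6 lie close together on rat chromosome 2 with S100a5 as the protein-coding gene between them, and S100a11 and S100a10 are neighbours on the same chromosome with no protein-coding gene between them. S100b lies on chromosome 20 and Anxa2 on chromosome 8. RefSeq's table of promoters (build GRCr8) held 5 of the 6 genes, and 4 are shown here because they set S100a4, the gene that changed most, beside its neighbour S100a6, beside S100b, the most abundant of the 6 without injury, and beside Anxa2. Each runs 5' to 3' from 250 bases before to 50 bases after the annotated start, at chr2:178388279-178388578 (plus strand) for S100a4, chr2:178398287-178398586 (plus strand) for S100a6, chr20:12381032-12381331 (minus strand) for S100b and chr8:78986002-78986301 (plus strand) for Anxa2. Capitals mark matches, on either strand, to the TATA box letters TATAAA, the CCAAT box letters CCAAT, the GC box letters GGGCGG and the AP-1 letters TGANTCA.
S100a4: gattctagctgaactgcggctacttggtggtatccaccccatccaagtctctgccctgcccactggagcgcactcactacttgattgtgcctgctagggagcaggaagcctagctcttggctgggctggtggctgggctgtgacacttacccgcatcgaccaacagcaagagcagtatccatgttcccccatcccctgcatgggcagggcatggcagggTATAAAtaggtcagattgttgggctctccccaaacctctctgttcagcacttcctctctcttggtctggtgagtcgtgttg
S100a6: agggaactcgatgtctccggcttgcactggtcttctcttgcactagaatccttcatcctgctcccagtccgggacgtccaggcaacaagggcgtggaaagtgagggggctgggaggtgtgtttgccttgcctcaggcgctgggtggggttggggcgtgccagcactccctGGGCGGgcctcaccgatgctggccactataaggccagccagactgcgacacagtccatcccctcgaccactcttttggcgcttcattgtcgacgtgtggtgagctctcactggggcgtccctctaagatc
S100b: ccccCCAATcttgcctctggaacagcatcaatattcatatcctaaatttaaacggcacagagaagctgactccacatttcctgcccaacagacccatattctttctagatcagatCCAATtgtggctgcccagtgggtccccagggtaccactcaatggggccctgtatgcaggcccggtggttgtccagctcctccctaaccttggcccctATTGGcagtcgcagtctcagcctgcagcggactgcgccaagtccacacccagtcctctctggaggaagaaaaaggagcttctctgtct
Anxa2: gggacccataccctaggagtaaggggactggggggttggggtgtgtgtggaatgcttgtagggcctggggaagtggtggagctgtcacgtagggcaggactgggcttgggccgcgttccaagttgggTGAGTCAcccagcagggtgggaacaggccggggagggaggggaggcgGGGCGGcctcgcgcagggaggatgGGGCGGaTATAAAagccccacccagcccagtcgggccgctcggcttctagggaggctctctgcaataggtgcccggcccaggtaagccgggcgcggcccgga
The S100a4 promoter held 1 of these motifs, TATAAA, whose first base lay at position -31 from the start. TATAAA was found in 14.2% of all 33469 promoters in the table. Anxa2 held TATAAA as well, together with 2 GC boxes, present in 33.1% of promoters, and with the AP-1 letters as TGAGTCA at position -123, present in 7.33%. S100a6 held 1 GC box and no TATAAA. S100b held 3 CCAAT boxes, 1 of them on the opposite strand, where 37.5% of promoters had at least 1. The letters AGATAA, a motif of GATA factors found in 11.6% of promoters, were in none of the 5. No 2 of these matches overlapped in the 4 promoters shown. A match is a string of letters and not evidence of binding.

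S100a4 rose after injury. It had 436, 684, 159 and 300 molecules in injured replicates 1 to 4, against 83, 101, 49 and 73 in uninjured replicates 1 to 4. As levels these were 1205, 1828, 1239 and 1265 CPM in injured libraries and 213, 445, 568 and 175 CPM in uninjured libraries. Every injured library stood above every uninjured one, with injured replicate 2 apart at the top and uninjured replicates 1 and 4 lowest. The mean was 1384 ± 297 CPM in injured and 350 ± 188 CPM in uninjured libraries (SD, n = 4 each), and the fitted fold was 4.16 (log2 fold change 2.06, standard error 0.33; 95% interval of the fold 2.56 to 6.77). S100a4 was the 1 gene of the 6 among the 41 called, 16th among them by fold and 3rd by gain in CPM. It made up 8.78% of all the CPM that the 41 genes gained. Since it was chosen with this contrast known, its call and its place describe it and add no further evidence.

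**Figure D1:**
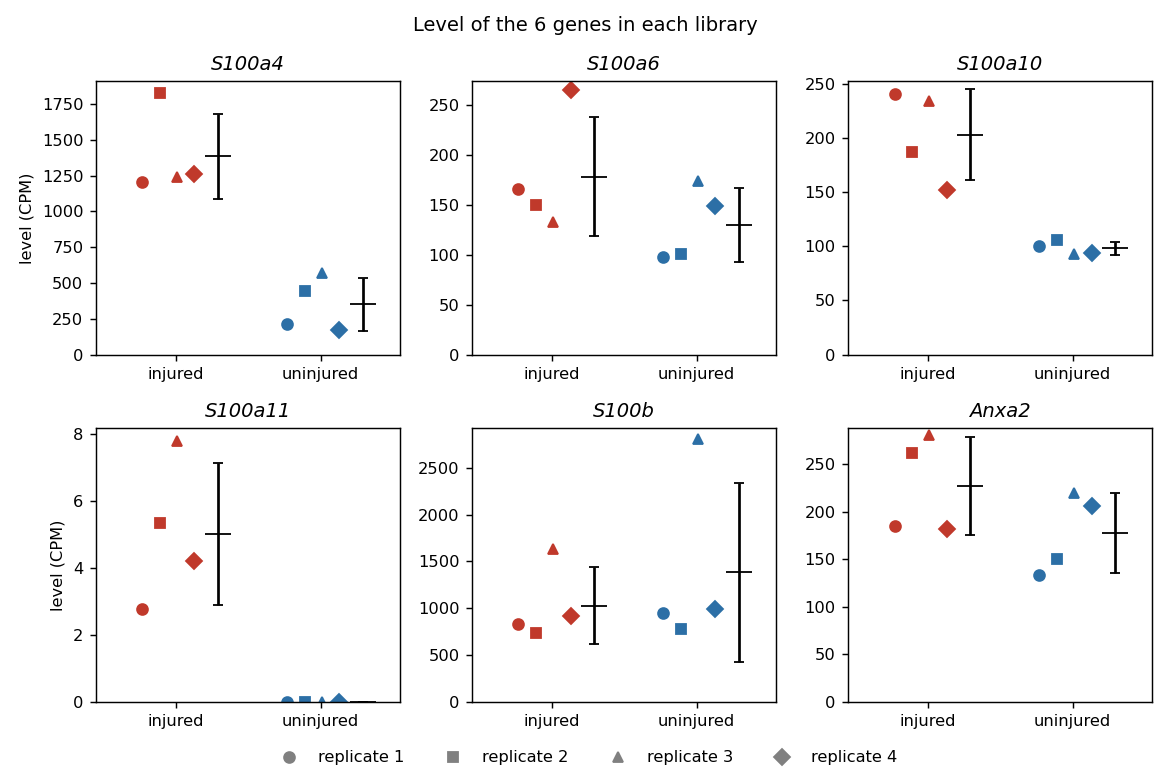
Level in CPM of each of the 6 genes in 4 injured and 4 uninjured libraries; marker shape gives the replicate number, and the black bar and whiskers give the mean and SD over 4 libraries. Injured and uninjured libraries separate for S100a4 (1205 to 1828 against 175 to 568 CPM) and S100a10 (152 to 240 against 92.7 to 106 CPM), S100b is highest in replicate 3 of both groups, and S100a11 rests on 1 or 2 molecules per injured library; each panel has its own axis.

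The size of the S100a4 difference varied with the replicate number. Libraries that share a number in the 2 groups deviated together across genes, though number 3 no more than some libraries of different numbers. The ratio was therefore also taken within each number. Injured over uninjured, the log2 ratio was 2.44, 2.01, 1.11 and 2.78 for numbers 1 to 4, which corresponds to ratios of 5.42, 4.03, 2.16 and 6.86. All 4 lay above 0, which follows from every injured library standing above every uninjured one. The shallow libraries numbered 3 gave the lowest ratio. Libraries of both groups differed among themselves by more than counting error: the coefficient of variation was 21.4% in injured and 53.6% in uninjured libraries, where counting error alone would give 5.50% and 13.9%. The highest count, 684, could be understated by reuse of identifiers, since a correction for 6-base identifiers would add 9.36% to it and 1.37% or less to any uninjured count of S100a4.

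S100a10, the calcium-independent member that pairs with annexin A2, was about 2-fold higher in injured libraries. It had 87, 70, 30 and 36 molecules in injured replicates 1 to 4, against 39, 24, 8 and 39 in uninjured replicates 1 to 4. The levels were 240, 187, 234 and 152 CPM in injured libraries and 100.2, 106, 92.7 and 93.6 CPM in uninjured libraries. No injured library fell into the uninjured range, and uninjured levels were nearly equal. Means were 203 ± 41.7 CPM in injured and 98.1 ± 6.12 CPM in uninjured libraries (SD, n = 4 each), with a fitted fold of 2.05 (log2 fold change 1.04, standard error 0.25; 95% interval of the fold 1.43 to 2.95). It lay just outside the threshold over all genes that S100a4 passed. With the replicate number as a block it was called higher, at a log2 fold change of 0.9997 (standard error 0.20). That blocked fit called 2.26% of tested genes higher. Both S100a4 and S100a10 had every injured library above every uninjured one, as did 3.08% of the tested genes. The spread among uninjured libraries was 6.25% of the mean, below the 22.9% that counting error gives at these depths, so the SD of 6.12 CPM understates the error of that mean. For example, the 8 molecules of uninjured replicate 3 carried an exact 95% Poisson interval of 40.0 to 183 CPM. Within replicate numbers the log2 ratio was 1.18, 0.76, 1.24 and 0.64 for numbers 1 to 4, a narrower range than for S100a4.

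Anxa2 was not called in either fit. It had 67, 98, 36 and 43 molecules in injured replicates 1 to 4, against 52, 34, 19 and 86 in uninjured replicates 1 to 4. Levels were 185, 262, 281 and 181 CPM in injured libraries and 134, 150, 220 and 206 CPM in uninjured libraries. The groups overlapped, since uninjured replicates 3 and 4 stood above injured replicates 1 and 4. Means were 227 ± 51.4 CPM in injured and 178 ± 42.2 CPM in uninjured libraries (SD, n = 4 each), and the fitted fold of 1.29 had a 95% interval of 0.894 to 1.88, which includes no difference and reaches nearly 2-fold. The log2 ratio within numbers was 0.44, 0.76, 0.34 and -0.18 for numbers 1 to 4, so that number 4 went the other way.

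The proportion of S100a10 to Anxa2 molecules can be read within a library, without any scaling. S100a10 to Anxa2 was 1.30, 0.714, 0.833 and 0.837 in injured replicates 1 to 4, against 0.750, 0.706, 0.421 and 0.454 in uninjured replicates 1 to 4. Anxa2 had the larger count in 3 of 4 injured and in 4 of 4 uninjured libraries. The mean ratio was 0.921 ± 0.258 in injured and 0.583 ± 0.169 in uninjured libraries (SD, n = 4 each), and the ranges overlapped because injured replicate 2 lay below uninjured replicate 1. Within each of the 4 replicate numbers the injured ratio was the higher, by 0.714 against 0.706 for number 2. Counting error was wide: the exact 95% interval ran from 0.933 to 1.81 in injured replicate 1 and from 0.160 to 1.01 in uninjured replicate 3.

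**Figure D2:**
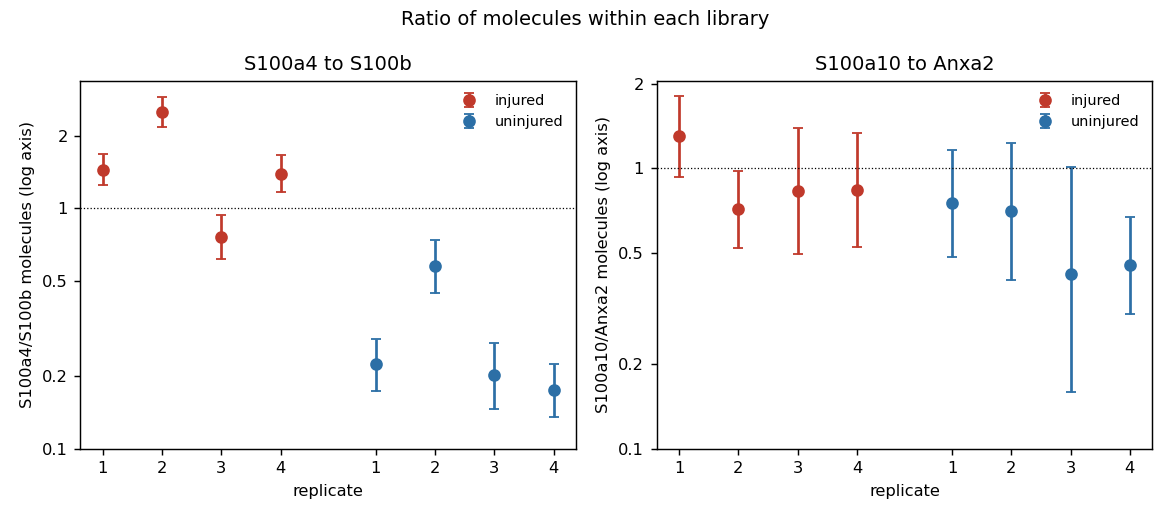
Ratio of molecules within each library for S100a4 to S100b (left) and S100a10 to Anxa2 (right), on log axes, by group and replicate; whiskers are exact 95% intervals for counting error and the dotted line marks equal counts. S100a4 outnumbers S100b in 3 of 4 injured and 0 of 4 uninjured libraries, and the S100a10 to Anxa2 ratios of the groups overlap.

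S100a6, the neighbour of S100a4 on the chromosome, was not called. It had 60, 56, 17 and 63 molecules in injured replicates 1 to 4, against 38, 23, 15 and 62 in uninjured replicates 1 to 4. Levels were 166, 150, 133 and 266 CPM in injured libraries and 97.7, 101, 174 and 149 CPM in uninjured libraries. Injured replicate 4 was the highest of the 8, while injured replicate 3 lay below uninjured replicates 3 and 4. Means were 178 ± 59.8 CPM in injured and 130 ± 37.1 CPM in uninjured libraries (SD, n = 4 each), with a fitted fold of 1.42 and a 95% interval of 0.940 to 2.16. The log2 ratio was 0.70, 0.52, -0.37 and 0.79 for numbers 1 to 4, negative for the shallow number 3. S100a4 to S100a6 molecules stood at 7.27, 12.2, 9.35 and 4.76 in injured replicates 1 to 4, against 2.18, 4.39, 3.27 and 1.18 in uninjured replicates 1 to 4. These within-library ratios of the neighbouring genes did not overlap between the groups, but the gap was narrow. The exact 95% interval was 3.62 to 6.35 in injured replicate 4 and 2.77 to 7.24 in uninjured replicate 2, so these intervals overlapped. How often ratios of other gene pairs separate so was not examined, and S100a4 was chosen with its difference known.

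S100b, the astrocyte protein gene, was abundant in every library and was not called. It had 302, 273, 209 and 216 molecules in injured replicates 1 to 4, against 370, 176, 242 and 415 in uninjured replicates 1 to 4. Levels were 834, 729, 1628 and 911 CPM in injured libraries and 951, 775, 2804 and 996 CPM in uninjured libraries. Replicate 3 was the highest of each group, and these are the 2 shallowest libraries with the largest share of molecules in their 10 most abundant genes; the part of depth in their S100b level was not tested. Means were 1026 ± 409 CPM in injured and 1382 ± 953 CPM in uninjured libraries (SD, n = 4 each), and the fitted log2 fold change of -0.41 had a 95% interval from -1.23 to 0.40. Without uninjured replicate 3 alone the log2 fold change was 0.15, without both libraries numbered 3 it was -0.14 (standard error 0.22), and with the replicate number as a block it was -0.29 (standard error 0.16). The log2 ratio within numbers was -0.19, -0.09, -0.78 and -0.13 for numbers 1 to 4.

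S100a11 was near the limit of detection and was left out of the fit by the filter on low counts. It had 1, 2, 1 and 1 molecules in injured replicates 1 to 4 and 0 in each of the uninjured libraries. The groups were thus apart by only 1 or 2 molecules. How often genes with counts this low separate so was not examined, since the share of 3.08% covers tested genes only. The limit that a count of 0 allows, 3 molecules, was 7.20 CPM in the deepest and 34.8 CPM in the shallowest uninjured library, and all injured levels, 2.76 to 7.79 CPM, lay under the limit of their own library. No fold is given for counts this low. With no filter on low counts it was among 12968 genes fitted and was not called.

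**Figure D3:**
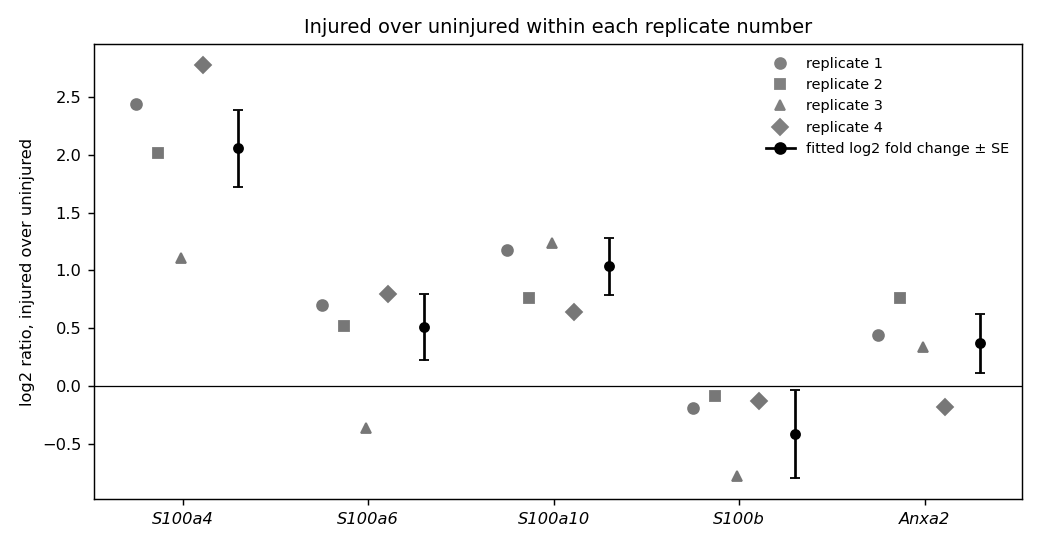
Log2 ratio of injured over uninjured level within each replicate number (grey, log2 CPM with a prior count of 3) and the fitted log2 fold change with its standard error over all 8 libraries (black) for the 5 genes that passed the filter on low counts. All 4 numbers lie above 0 for S100a4 (1.11 to 2.78) and S100a10 (0.64 to 1.24), 3 of 4 for S100a6 and Anxa2, and none for S100b. For S100a4 and S100a10 the sign follows from every injured library standing above every uninjured one.

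The order of the genes by level differed between the groups. In injured libraries S100a4 came first on average, then S100b, Anxa2, S100a10, S100a6 and S100a11. In uninjured libraries S100b came first, then S100a4, Anxa2, S100a6, S100a10 and S100a11. The ranges of S100a4 and S100b overlapped in injured libraries (1205 to 1828 against 729 to 1628 CPM) and were apart in uninjured libraries (175 to 568 against 775 to 2804 CPM). Anxa2 lay wholly below S100b in injured libraries, and below it the ranges of Anxa2, S100a10 and S100a6 overlapped there. In uninjured libraries the range of Anxa2 overlapped with that of S100a6, and the range of S100a6 with that of S100a10. Anxa2 lay wholly above S100a10 there and had more molecules than S100a6 in 4 of 4 uninjured libraries. Among tested genes, S100a4 stood at percentile 97.8 by mean level in injured libraries and at 87.3 in uninjured libraries. S100b stood at percentile 96.9 in injured and 97.8 in uninjured libraries. S100a10 stood at percentile 76.9 in injured and 55.5 in uninjured libraries.

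Taken as a share of the molecules of all 6 genes, S100a4 made up 45.8%, 57.8%, 35.2% and 45.5% in injured replicates 1 to 4, against 14.3%, 28.2%, 14.7% and 10.8% in uninjured replicates 1 to 4. The lowest injured share had an exact 95% interval of 30.8% to 39.8% and the highest uninjured share one of 23.6% to 33.2%, so that these 2 intervals overlapped although the values did not. S100b made up 31.7%, 23.1%, 46.2% and 32.8% in injured replicates 1 to 4, against 63.6%, 49.2%, 72.7% and 61.5% in uninjured replicates 1 to 4. A larger share of one gene lowers the others by construction. S100a10 averaged 6.79% ± 1.64 in injured and 5.40% ± 2.04 in uninjured libraries, Anxa2 averaged 7.45% ± 0.815 in injured and 9.22% ± 2.88 in uninjured libraries, and S100a6 6.09% ± 2.54 in injured and 6.66% ± 1.92 in uninjured libraries (SD, n = 4 each). S100a4 to S100b molecules stood at 1.44, 2.51, 0.761 and 1.39 in injured replicates 1 to 4, against 0.224, 0.574, 0.203 and 0.176 in uninjured replicates 1 to 4. Injured replicate 3 was the 1 injured library in which S100b still outnumbered S100a4, and it remained above every uninjured library in this ratio. Its exact 95% interval of 0.615 to 0.94 overlapped that of uninjured replicate 2, 0.445 to 0.737. How often ratios of other gene pairs separate so was not examined.

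**Figure D4:**
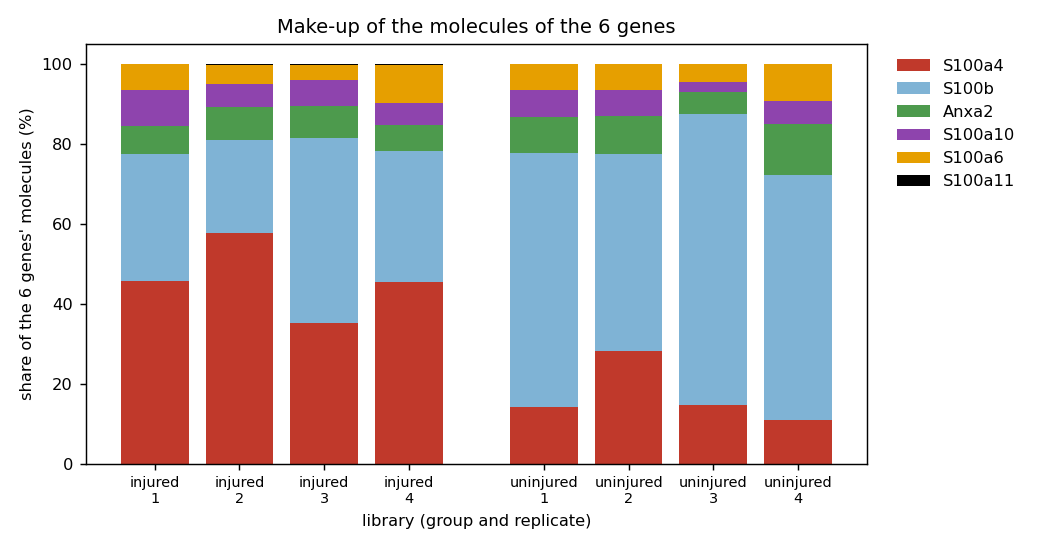
Share, in percent, of each gene in the summed molecules of the 6 genes, 1 bar per library, injured libraries on the left. S100a4 takes 35.2% to 57.8% in injured and 10.8% to 28.2% in uninjured libraries, and S100b takes 23.1% to 46.2% in injured and 49.2% to 72.7% in uninjured libraries.

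Likeness to S100a10 was measured as the root mean square difference, over the 8 libraries, of log2 CPM centred on each gene's own mean, among 1073 genes with at least 50 molecules per library on average (S100a10 itself averaged 41.6). Anxa2 ranked 78th, with a difference of 0.45 on the log2 scale, where the median gene had 0.62. S100a4 ranked 972nd (0.79), and S100b ranked 1032nd (0.88). S100a6 fell below the level needed to be ranked. The most similar profiles were those of ENSRNOG00000018958 (0.23; log2 fold change 0.77, injured over uninjured) and ENSRNOG00000022325 (0.27; log2 fold change 0.89), which have no symbol in the sources used here. With each group's own mean removed, which takes the injury difference out, Anxa2 ranked 478th (0.33, against a median of 0.35) and S100a4 963rd (0.56). Counting error alone would give a pair of genes with the counts of S100a10 and Anxa2 a difference of about 0.36 before any centring and without a prior count. Removing group means and adding a prior count both lower such a difference, so 0.36 and 0.33 are not on the same footing. Whether the 2 genes vary together apart from the difference between the groups was therefore not settled. The biological coefficient of variation fitted by edgeR was 0.314 for S100a4, 0.378 for S100b, 0.250 for S100a6, 0.229 for Anxa2 and 0.210 for S100a10, against a median of 0.237 for tested genes.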

How the data were processed

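The 6 genes and the alternatives were chosen with earlier results of these data known. The authors deposited 1 table of counts of molecules per gene, whole and without normalization. Per the labels, libraries were made with CEL-Seq2; per the submitters' processing notes the tools include HISAT2 2.0.4 and HTSeq 0.6.0 with build Rnor_6.0. How identifiers were collapsed, which annotation was used and whether strand was used is not stated there, so overlapping antisense reads cannot be told apart. Gene symbols of the 6 identifiers came with the selection; the RefSeq table carries no Ensembl identifiers, so planned lists and cell type markers were not tested.

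Genes were kept by filterByExpr (minimum count 10, minimum total 15), leaving 4159. The fit was edgeR 4.0.16 in R 4.3.3 (TMM, robust quasi-likelihood F test, two-sided, Benjamini-Hochberg, threshold 0.05). It was also run on data simulated from its own dispersions and library sizes. That simulation held neither a ceiling on counts nor shared deviations of libraries with the same number, so it cannot speak to either. Standard errors came from the log2 fold change and F. Alternatives included limma-voom (limma 3.58.1) and DESeq2 1.42.0; plots used matplotlib 3.10.9. Intervals of levels, ratios and shares of single libraries are exact, at 95%, and cover counting error only. The 95% intervals of folds and log2 fold changes came from the fit's standard errors and t quantiles. They are approximate and include spread between libraries. The 2 identifiers outside the 6 are the nearest in profile to S100a10. Libraries of the same number correlated across genes in their deviations from group means (0.39, 0.36, 0.17 and 0.45 for numbers 1 to 4). Between different numbers the correlation ran from -0.39 (injured 4 with uninjured 1) to 0.24 (injured 2 with uninjured 1). The 0.17 of number 3 lay within that range. The numbers were used as pairs only for ratios within numbers and as a block in alternative fits, on the data and not on a stated design. The fit reported had no block, so its folds, standard errors, intervals and calls are unpaired.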

Additional observations from a re-analysis of the deposited data

Results flagged for a closer look

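In a group of 4, a library whose gap to its nearest neighbour exceeds 0.829 of the group's range was singled out; 20 groups of values were examined, and chance singles out about 1 in 20. S100a4 stood at 1828 CPM in injured replicate 2, above 1205 to 1265 CPM in the other 3 injured libraries. S100b stood at 2804 CPM in uninjured replicate 3, the shallowest library, above 775 to 996 CPM in the other 3 uninjured libraries. The ratio of S100a4 to S100b molecules was 0.574 in uninjured replicate 2, above 0.176 to 0.224 in the other 3 uninjured libraries.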

How the results depend on the processing

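S100a4 was called higher in all 21 refits, with log2 fold changes from 1.81 to 2.45. Those refits called 0.559% to 5.84% of tested genes higher. S100a10 ranged from 0.89 to 1.15 (0.93 to 1.15 with 1 library left out) and was called in 5 of 21: with DESeq2 (1.03), with at least 20 molecules in at least 4 libraries (1.03), with the replicate block (0.9997), without injured replicate 4 (1.15) and, chosen after seeing the data, with the block and without both libraries numbered 3 (0.95). That last fit also called S100a6 (0.74), so that 3 of the 6 were called higher in it, where 5.84% of 4660 tested genes were. The number of the 6 called higher was otherwise 2 wherever S100a10 was called and 1 elsewhere, and 0 were called lower in any refit. Anxa2 (0.24 to 0.49) and S100b (-0.72 to 0.15) were called in none. S100b changed sign without uninjured replicate 3 (0.15). The replicate block changed no other call of the 6.

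Over all tested genes, 94 were higher and 4 lower with no filter on low counts (12968 genes tested, 0.725% higher), 94 and 16 with the replicate block (4159 tested, 2.26% higher), 26 higher in a draw thinned to 119808 molecules (2210 tested, 1.18% higher), and 272 and 111 with the block and without both libraries numbered 3. The share called higher was 0.986% in the fit reported, so with no filter and with thinning the share moved opposite to the count. Why the counts moved was otherwise not tested. Lower calls were 2 with DESeq2, 1 with limma-voom and 1 without both libraries numbered 3. Leaving out 1 library gave 22 to 74 higher (0.559% to 1.57% of 3926 to 4705 genes tested) and 0 to 3 lower genes, with 22 without uninjured replicate 1, 23 without uninjured replicate 4 and 74 without uninjured replicate 3; the number of the 6 called higher was 1 to 2. Correcting for repeated identifiers lowered the mean CPM of all 6 genes in injured libraries, since the most abundant genes then take a larger total. For S100a4 it went from 1384 to 1153. Only for S100a10 did the mean move by more than 1 SD, to 161 in injured and 77.4 in uninjured libraries. The log2 fold change of S100a10 stayed at 1.04. The other 80 recomputed levels and ratios moved by no more than 1 SD. Most of them left out 1 of 4 libraries, and such a mean cannot move by 1 SD of the same libraries. S100a11 in uninjured libraries stayed at 0 throughout. The count of 80 therefore shows little about stability. S100a11 was fitted in 1 refit, the one with no filter, and was not called there.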
